A study of Mus musculus with 9 samples.

Results

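Non-methylated islands (NMIs) that lay apart at alternative promoters (annotated transcript 5′ ends) of the same gene were described in C127 cells, a mouse mammary epithelial line. NMIs are stretches of DNA without CpG methylation, here called from a single BioCAP library, in which DNA is captured on the CXXC domain of KDM2B, a domain that binds non-methylated CpG. The members were chosen by measured values, namely the presence of intervals in the NMI list: an NMI was taken when it contained a transcript 5′ end of a protein-coding gene for which 2 or more different NMIs each contained a 5′ end of that gene. The rule gave 821 NMIs of the 13491 in the list (6.09%, exact 95% interval 5.69 to 6.50), or 821 of the 9581 NMIs with a 5′ end of a protein-coding gene. They belonged to 408 genes. The 408 genes were 1.88% of the 21755 protein-coding genes annotated on chromosomes 1 to 19 and X, and 3.91% of the 10425 genes with at least 1 NMI. Since this choice rests on the same list that is described, all values are given without a test. The cells carried no treatment, and of the series' 9 samples only the 1 BioCAP sample gave the list used here. There were no replicates, and intervals are exact (Clopper-Pearson) and cover counting error only.

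Most vertebrate CpG islands stay free of methylation and lie at promoters, and many genes have more than 1 promoter. Alternative promoters give transcripts that differ in their first exon, which can change the 5′ untranslated region alone or the start of the protein as well. CFP1, a subunit of the SET1 histone methyltransferase complex, carries a CXXC domain that recognises such islands, and the study asked how this complex selects its targets among them. An NMI marks non-methylated DNA and is not a measure of transcription. The study shows a larger number of NMIs than were analysed here, so that having no NMI, here and in all counts, means only that no interval of the list used held a 5′ end. Of the genes used to check the cell type, the epithelial markers Cdh1, Epcam, Krt8 and Krt18 and the basal markers Krt5 and Krt14 had no NMI in the list, whereas the mesenchymal markers Vim and Cdh2 each had 1, of 2719 and 3054 bp.

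The genes with the most NMIs were Plec with 6 and Dst with 5, and both encode plakins, large proteins that link intermediate filaments and other cytoskeletal filaments to cell junctions. The remaining genes had few: 13 genes had 3 NMIs and 393 genes had 2. To show how the sequence before these annotated 5′ ends differs, a stretch of up to 150 bp just upstream of a 5′ end is given for 5 of the 6 NMIs of Plec. They are numbered from the first NMI in the direction of transcription to the last. The stretches contain no annotated exon, were read from the RefSeq GRCm38.p6 genome sequence (the build of mm10) and run 5′ to 3′ on the minus strand, with the bases of each CpG in capitals.
Plec NMI 1 (chr15:76232575-76232724): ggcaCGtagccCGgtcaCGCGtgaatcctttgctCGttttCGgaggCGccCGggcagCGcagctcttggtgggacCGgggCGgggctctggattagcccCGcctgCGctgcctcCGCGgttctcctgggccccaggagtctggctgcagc
Plec NMI 3 (chr15:76206323-76206436): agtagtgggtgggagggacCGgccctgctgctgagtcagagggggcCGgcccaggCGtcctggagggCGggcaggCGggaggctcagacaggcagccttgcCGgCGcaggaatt
Plec NMI 4 (chr15:76199836-76199972): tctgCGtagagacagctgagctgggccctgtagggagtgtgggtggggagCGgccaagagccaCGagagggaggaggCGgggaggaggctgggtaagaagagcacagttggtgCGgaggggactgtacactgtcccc
Plec NMI 5 (chr15:76198210-76198359): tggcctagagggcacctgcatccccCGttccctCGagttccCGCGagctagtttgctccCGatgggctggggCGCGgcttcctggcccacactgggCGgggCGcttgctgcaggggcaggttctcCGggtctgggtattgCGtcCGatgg
Plec NMI 6 (chr15:76195711-76195764): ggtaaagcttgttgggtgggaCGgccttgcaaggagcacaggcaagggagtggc

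The stretches of NMIs 1, 3, 4, 5 and 6 of Plec held 15, 7, 5, 12 and 1 CpG. Of these, the stretch of NMI 1, of 150 bp, was the richest, at 10 CpG per 100 bp. That of NMI 6 was the poorest, at 1.85 CpG per 100 bp, but it was only 54 bp long. The whole NMIs differed less than these stretches. All 6, in order, were 683, 1168, 846, 616, 1635 and 409 bp wide, and had 6.44, 6.76, 4.61, 3.90, 4.34 and 3.42 CpG per 100 bp. The 2 NMIs farthest upstream were thus denser in CpG than the 4 downstream. The gaps between them measured 2450, 22511, 5618, 476 and 1481 bp, and the 6 NMIs together spanned 37893 bp of chromosome 15 (76195356 to 76233248). Of the 16 distinct 5′ ends annotated for Plec, 9 lay in an NMI. The annotated start codons differed across each of the 5 gaps, so that no neighbouring NMIs of Plec shared one.

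Dst, whose isoforms serve in epithelium, muscle and nerve, was read in the same way on the plus strand.
Dst NMI 1 (chr1:33908075-33908224): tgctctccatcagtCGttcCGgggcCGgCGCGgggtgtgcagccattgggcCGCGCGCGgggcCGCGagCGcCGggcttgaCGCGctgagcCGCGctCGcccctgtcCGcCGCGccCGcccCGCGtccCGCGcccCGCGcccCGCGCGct
Dst NMI 2 (chr1:34006009-34006125): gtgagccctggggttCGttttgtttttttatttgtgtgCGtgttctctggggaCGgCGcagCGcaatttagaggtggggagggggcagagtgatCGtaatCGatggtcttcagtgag
Dst NMI 3 (chr1:34011663-34011812): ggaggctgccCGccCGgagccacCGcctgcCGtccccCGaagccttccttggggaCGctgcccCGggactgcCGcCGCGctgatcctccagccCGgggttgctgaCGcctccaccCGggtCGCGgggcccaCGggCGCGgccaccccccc
Dst NMI 4 (chr1:34121418-34121567): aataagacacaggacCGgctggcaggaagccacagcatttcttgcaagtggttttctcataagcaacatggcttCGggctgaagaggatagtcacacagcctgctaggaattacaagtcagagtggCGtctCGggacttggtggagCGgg
Dst NMI 5 (chr1:34236446-34236595): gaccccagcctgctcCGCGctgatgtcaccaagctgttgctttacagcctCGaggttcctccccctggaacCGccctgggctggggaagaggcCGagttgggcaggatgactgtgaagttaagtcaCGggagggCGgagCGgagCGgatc

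The Dst stretches held 31, 7, 18, 5 and 9 CpG. The NMIs were 1217, 383, 1225, 1005 and 389 bp wide, with 12.1, 5.74, 6.78, 2.99 and 6.94 CpG per 100 bp. The first NMI, which also held a 5′ end of Bend6, was the densest, and the fourth the sparsest although it was over 1000 bp wide. The NMIs of Dst were spread much farther than those of Plec, with gaps of 97321, 4590, 108977 and 114276 bp and a span of 329383 bp on chromosome 1 (33907438 to 34236820). In Dst, 7 of 17 distinct 5′ ends lay in an NMI. Annotated support was uneven: NMIs 1, 4 and 5 each held the 5′ end of 1 transcript of support level 5, the lowest. That of NMI 4 was not coding. Only NMIs 2 and 3, with 2 and 3 transcripts, had 1 of the best level, 1.

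The 13 genes with 3 NMIs had no common layout. Frmd4a, which encodes a FERM-domain protein of cell polarity, had its NMIs over a span of 259896 bp, and Gse1 over 311260 bp. In contrast, the 3 NMIs of Mast3, a microtubule-associated kinase, spanned 13346 bp, and those of the retinoic acid receptor gene Rarg spanned 14582 bp. Tcf4, which encodes an E protein transcription factor, had 2 NMIs separated by 1294 bp and the last one 245502 bp farther downstream. Kdm2b, the gene of the protein whose CXXC domain was used for capture, had 3 NMIs, with gaps of 86814 and 10554 bp. The NMIs of Lmna, which encodes the nuclear lamins A and C, were 524, 1071 and 1013 bp wide. The other members of this group were Specc1, Jmjd1c, Ptprs, Sbno2, Nfic and Cic.

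**Figure D1:**
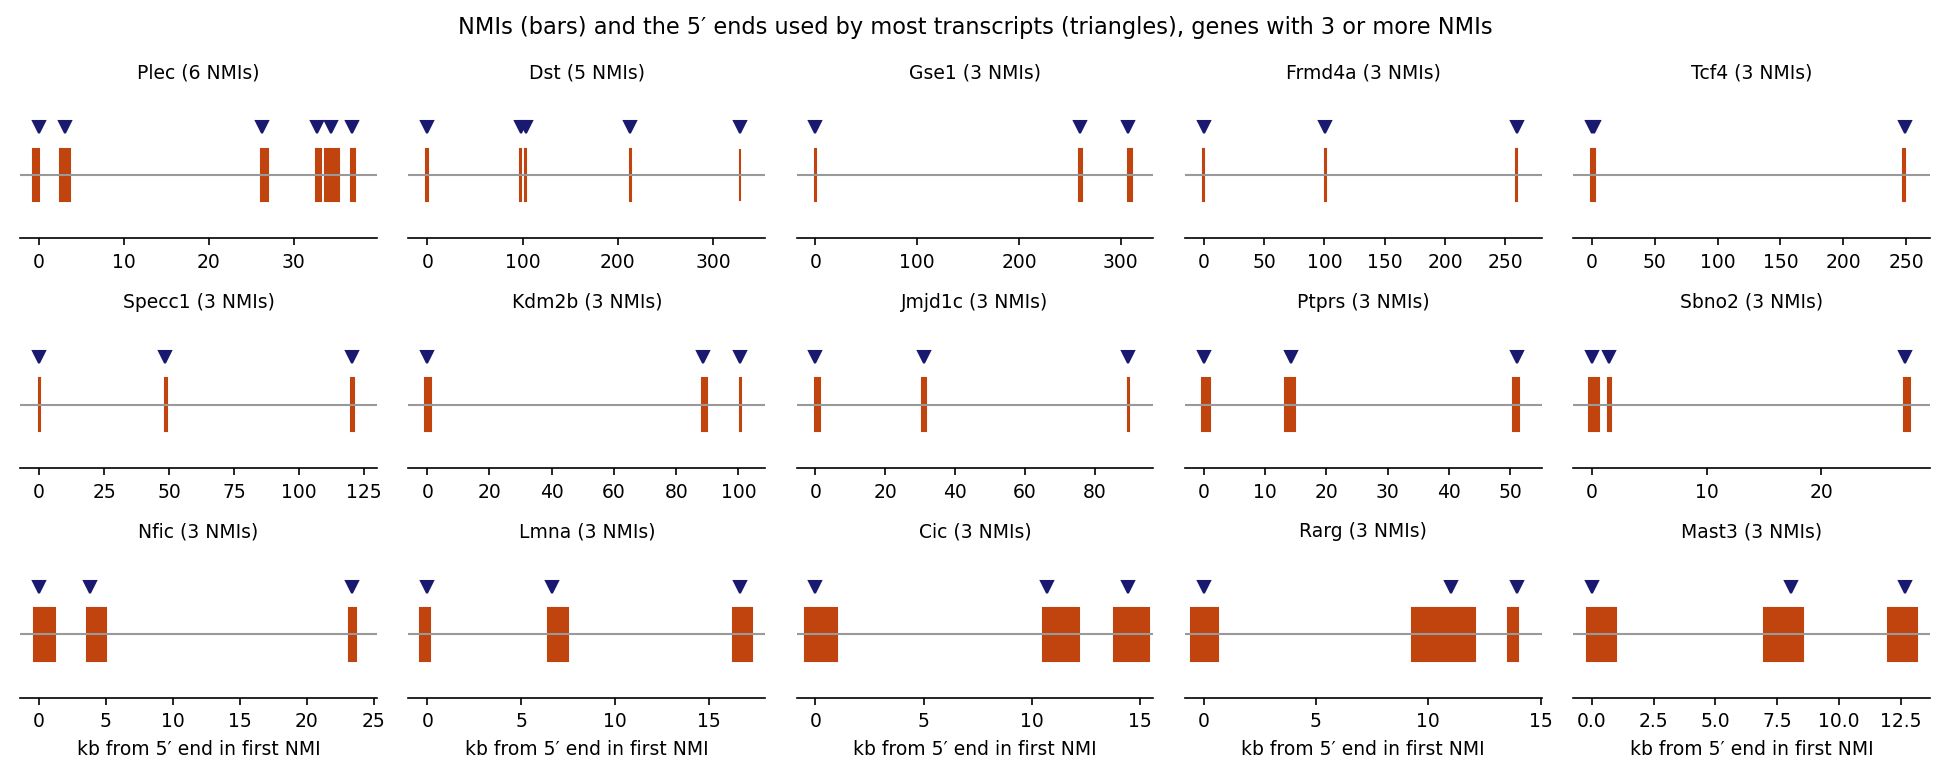
NMIs of the 15 genes with 3 or more, drawn to scale along each gene in the direction of transcription (x axis: distance in kb from the 5′ end in the first NMI; each panel has its own scale). Bars are NMIs and triangles the 5′ end used by most transcripts in each. The 6 NMIs of Plec spread over 37893 bp, the 5 of Dst over 329383 bp.

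To describe spacing, the gap was taken as the bases between neighbouring NMIs of a gene, which gave 428 pairs. The median gap was 12427 bp (quartiles 4274.5 and 42963.8 bp), and the gaps ran from 465 to 2854759 bp. Of the 428 pairs, 27 (6.31%) were less than 1000 bp apart, 192 (44.9%) less than 10000 bp and 391 (91.4%) less than 100000 bp. No other NMI of the list lay between the members of most pairs, and 53 pairs (12.4%) had at least 1 between them. The DNA between was poor in CpG, with a median of 1.10 CpG per 100 bp (quartiles 0.856 and 1.45), below that of both flanking NMIs in 428 of 428 pairs. BioCAP captures by CpG density as well as by lack of methylation, so that the 2 cannot be told apart in the gaps. A lower density in the gaps than in the NMIs was therefore largely built into the way NMIs are called.

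The widest gap belonged to Fgfr2, a fibroblast growth factor receptor gene, at 2854759 bp with 19 other NMIs in between. It rested on a single transcript of the lowest support level, 5, whose 5′ end lay in the NMI of Ctbp2, and 5 transcripts began in the second NMI of Fgfr2. The next widest gaps were those of Foxp1, a forkhead transcription factor gene (491152 bp), Mast4, a kinase gene (426792 bp), and Maml3, a coactivator gene of Notch signalling (304886 bp). They were followed by Hivep3 (298504 bp), Rere (286642 bp), 2010111I01Rik (274411 bp) and Gse1 (257804 bp). In Foxp1, 4 transcripts began in the first NMI and 6 in the second, and each NMI had a transcript of the best support level, 1. Maml3 also had level 1 on both sides, but the others named did not. The later NMI reached level 2 at Mast4 and level 3 at Rere, and at Hivep3 it held 1 transcript without a level. The first NMI held 1 transcript of level 2 at 2010111I01Rik and 1 of level 3 at Gse1.

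At the other end, the smallest gap was 465 bp, at Parp3, a poly(ADP-ribose) polymerase gene, and Rrp9, a gene of ribosomal RNA processing, which shared both NMIs. The gap was 476 bp for 1 pair of Plec, 483 bp at Ampd2, an AMP deaminase gene, 501 bp at Taf11, which encodes a TFIID subunit, 505 bp at Rusc2, 508 bp at the water channel gene Aqp5 and 524 bp at Runx1, a transcription factor gene of blood formation. The later NMI was the sparser in CpG at Aqp5, with 2.44 against 7.89 CpG per 100 bp in the first, and at Rusc2, with 2.23 against 8.32. It was also the sparser at Parp3, Ampd2, Taf11 and Runx1, and the denser at Rrp9 and in the Plec pair. No interval of the whole list lay closer than 464 bp to its neighbour, and a smaller gap could therefore not appear.

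**Figure D2:**
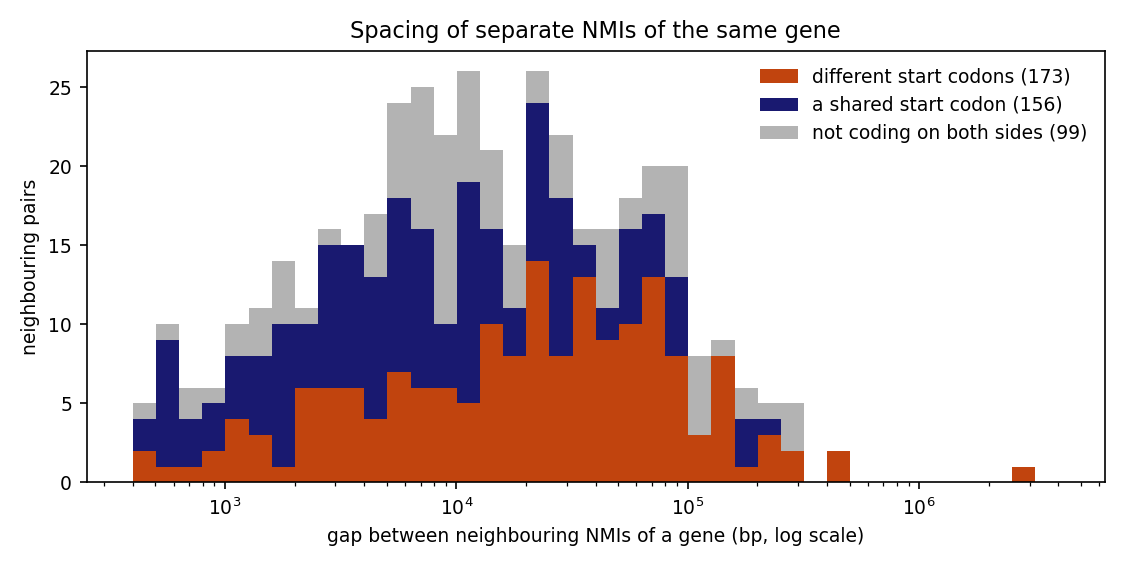
Gaps between the 428 pairs of neighbouring NMIs of a gene (x axis: bp, log scale; y axis: number of pairs), stacked by whether the annotated start codons on the 2 sides differ (173), are shared (156) or are not known on both sides (99). Pairs with different start codons had a median gap of 22831 bp, pairs with a shared one 6674.5 bp. The legend names the last class not coding on both sides, but it includes coding pairs without a start codon known on both sides.

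The start codons of the transcripts were compared to learn where the protein could begin differently. Both sides had a coding transcript in 343 of 428 pairs (80.1%), and a start codon was annotated on both sides in 329. The start codons differed in 173 of these (52.6%, 47.0 to 58.1) and at least 1 was shared in 156 (47.4%). The gap was wider in the first case, with a median of 22831 bp against 6674.5 bp for pairs with a shared start codon. In 131 of the 173 pairs (75.7%), none of the later start codons lay in an exon used by transcripts from the NMI before, whereas in 29 (16.8%) all of them did. Among coding 5′ ends more than 1000 bp from the main NMI of their gene (the NMI with most of its transcripts), 248 of 444 in another NMI (55.9%, 51.1 to 60.5) had only start codons not used from the main NMI, against 1691 of 3725 in no NMI (45.4%, 43.8 to 47.0). These ends are not independent, as one gene may have several, and the difference was not tested.

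Start codons differed at Abl1, a tyrosine kinase gene (gap of 70153 bp), Acaca, the gene of acetyl-CoA carboxylase (49222 bp), Dclk1, a kinase gene of neurons (218488 bp), Rassf1 (1554 bp) and Tpm1, which encodes tropomyosin (2585 bp). Adar, which encodes an RNA-editing deaminase with a long and a short isoform, had a gap of 14816 bp and different start codons. The same start codon was used at Gata2, a transcription factor gene of blood stem cells, where a 363-bp NMI lay 2745 bp upstream of one of 2462 bp, and at Runx1.

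In width, the 821 NMIs were slightly narrower than the other NMIs at protein-coding 5′ ends, with a median of 1105 bp (quartiles 759 and 1510) against 1177 bp (896 and 1548, n = 8760). Of the 821, 348 (42.4%) were narrower than 1000 bp, against 2984 of the 8760 (34.1%). First and later NMIs differed in width too: the first NMI of a gene had a median width of 1226 bp (897 and 1639.5, n = 408) and the later ones 1001 bp (678.75 and 1341.25, n = 428). First and later NMIs were counted once per gene, so that an NMI of 2 member genes stands in these counts once for each gene. In genes with 2 NMIs, the first was the wider in 254 of 393 (64.6%, 59.7 to 69.4).

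The widest were an NMI of 7934 bp at Gata3 and 9230102O04Rik, which share both NMIs, and NMIs at H2-DMa (5399 bp, shared with Brd2), Ubtf (4610 bp), Mxi1 (4478 bp), Arid5b (4309 bp), Smarca2 (4032 bp) and Maml3 (3960 bp). Gata3 is a luminal transcription factor of the mammary gland, Ubtf encodes a factor of ribosomal RNA transcription and Smarca2 an ATPase of chromatin remodelling. The wide NMI was the later one at Gata3 and 9230102O04Rik, where the first measured 1129 bp. It was the first at the other genes, where the later one measured 675 bp at H2-DMa, 734 bp at Ubtf, 1269 bp at Mxi1, 672 bp at Arid5b, 878 bp at Smarca2 and 321 bp at Maml3.

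In CpG density, both first and later NMIs had a lower median than the other NMIs at protein-coding 5′ ends. The 821 NMIs had a median of 6.43 CpG per 100 bp (quartiles 5.02 and 8.01), against 6.93 (5.73 and 8.31) in the other NMIs. First NMIs had a median of 6.69 and later NMIs 6.11. The ratio of observed to expected CpG was 0.717 in members against 0.765 in the others, and the GC content was 60.8% in each. First NMIs were denser than the next in 225 of 393 genes with 2 NMIs (57.3%, 52.2 to 62.2).

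**Figure D3:**
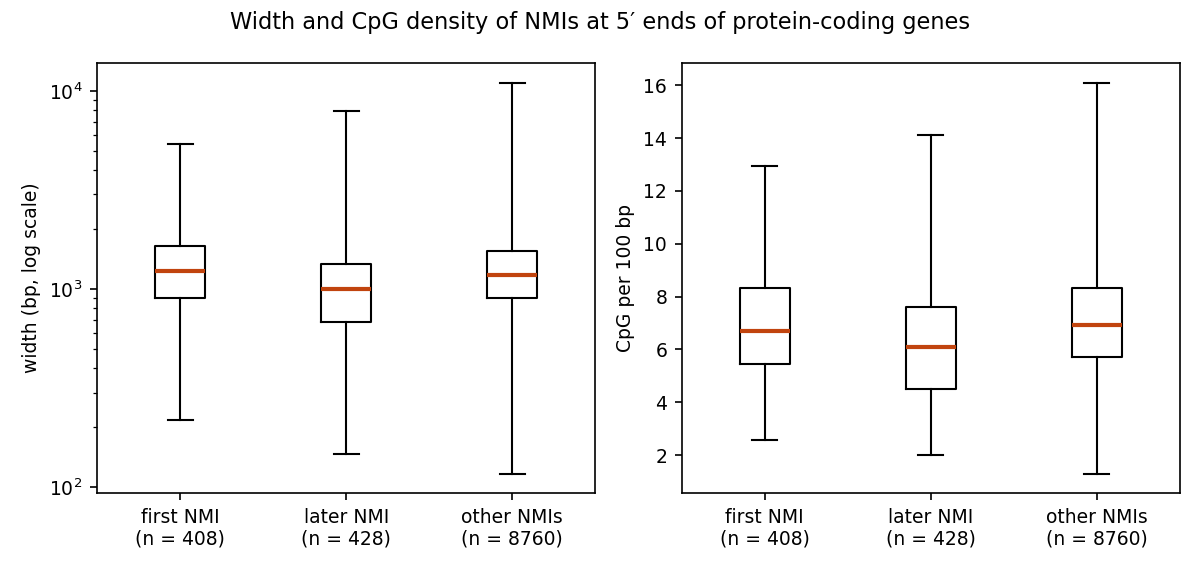
Width (left, bp, log scale) and CpG density (right, CpG per 100 bp) of first NMIs (n = 408), later NMIs (n = 428) and other NMIs at protein-coding 5′ ends (n = 8760). Boxes give quartiles, lines the median and whiskers the lowest and highest value. First and later NMIs are counted once per gene. Later NMIs have the lowest median in both panels, 1001 bp and 6.11 CpG per 100 bp.

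For each of 4 promoter motifs the share with a match was lower in later than in first NMIs, with intervals that overlapped. In windows from 250 bp before to 50 bp after the 5′ end, searched on both strands, the GC box GGGCGG was found in 73.0% of first and 68.5% of later NMIs, against 70.4% for genes with 1 NMI and 43.7% of all protein-coding genes. The ETS-like letters CCGGAAG were found in 16.9% and 13.3%, against 20.9% and 11.1%. TATAAA was found in 4.41% and 3.74%, against 5.71% and 12.6%, and CCAAT in 36.0% and 31.8%, against 38.8% and 38.6%. Each motif was counted whether or not it overlapped another, and a match describes the sequence only.

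With respect to position, the first NMI held the outermost 5′ end of its gene in 354 of 408 genes (86.8%). Nearly all later NMIs, 418 of 428 (97.7%), overlapped a transcript that began in the first NMI, and 119 (27.8%) touched an exon of such a transcript. A later NMI lies downstream of the first in the same annotated gene by definition, so that overlap with a transcript was largely set by the grouping. Numbers of transcripts did not single out the first NMI, since more of them began in the later NMI in 189 of 428 pairs (44.2%) and in the earlier one in 156 (36.4%). A transcript of support level 1 began on both sides in 186 pairs (43.5%).

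The NMIs were often shared with other genes, mainly the first one. A 5′ end of another protein-coding gene lay in 169 of 408 first NMIs (41.4%) and in 25 of 428 later NMIs (5.84%), and 145 of the 169 first NMIs (85.8%) were shared with genes on the opposite strand only. These counts of first and later NMIs are per gene, so that a shared NMI of 2 member genes enters them once for each gene. By NMI, 179 of the 821 (21.8%) held 5′ ends of at least 2 protein-coding genes, against 1042 of the 8760 others (11.9%). An NMI with more genes had more chances to become a member, since any gene it held could qualify it. Part of this difference was therefore built into the rule, and how much was not tested. In 5 cases a pair of genes shared the same set of NMIs, among them 9230102O04Rik and Gata3, Arl5b and Nsun6, Rpl18 and Sphk2, and Parp3 and Rrp9. In 236 of 408 genes (57.8%) the NMIs held no 5′ end of another protein-coding gene.

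The annotation moved with the count of genes. Genes with 2 or more NMIs had a median of 8 distinct 5′ ends and a length of 47328 bp, against 5 and 24375 bp for the 10017 genes with 1 NMI. The share with 2 or more NMIs was 0.537% (6 of 1117) at 2 distinct 5′ ends, 2.32% at 3 to 4, 3.19% at 5 to 6, 6.43% at 7 to 9, 7.36% at 10 to 14 and 14.8% (51 of 344) at 15 or more. A gene with 1 annotated 5′ end, of which there were 908, cannot have separate NMIs by the rule. By length, 185 of the 2606 genes longer than 56516 bp (7.10%) and 34 of the 2607 shortest genes, up to 10809 bp (1.30%), had 2 or more NMIs.

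**Figure D4:**
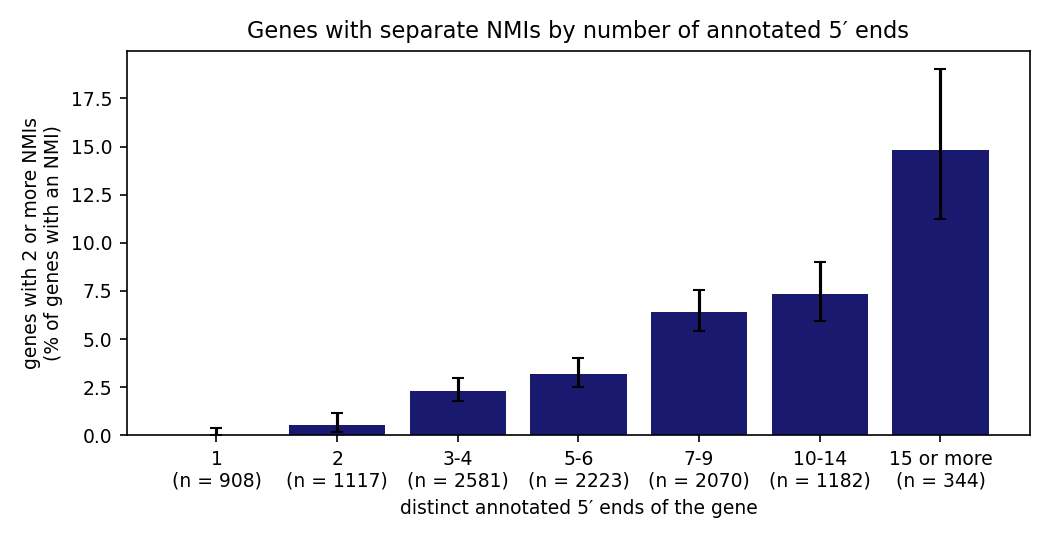
Genes with 2 or more NMIs as a percent of protein-coding genes with an NMI (y axis), by the number of distinct annotated 5′ ends of the gene (x axis). Bars are shares and lines exact 95% intervals, and the share is 0.537% at 2 ends and 14.8% at 15 or more.

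Most annotated 5′ ends away from the main NMI of their gene did not lie in another NMI. Of 22765 5′ ends more than 1000 bp from the main NMI of their gene, 676 (2.97%) lay in another NMI, and 400 of the 7042 genes with such an end (5.68%) had at least 1 that did. These ends are annotated transcript starts, not only those of coding transcripts, and were not shown to be promoters. The share depends on this choice: of the coding ends compared above, 444 lay in another NMI and 3725 in none. Sequence within 500 bp differed, with a median of 5.49 CpG per 100 bp around the 676 ends and 1.30 around the 22089 ends without an NMI. The groups were split by the NMI list, and BioCAP captures by CpG density as well as by lack of methylation. A difference in this direction was therefore built into the grouping. Of the 22089, 270 (1.22%) were denser than 5.49 CpG per 100 bp.

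The genes were set beside 14 gene lists, whose members were chosen with earlier results known, so that the counts are descriptions, and a gene may stand in several lists. Of 40 genes with an NMI among those known for alternative promoters, 15 had 2 or more (37.5%, 22.7 to 54.2), against 3.91% of all genes with an NMI. Genes were counted by annotated gene ID, and Aldoa, with 1 NMI, stands in this count under 2 IDs, as does Sept2 among the septins. The 15 were Plec, Dst, Tcf4, Foxp1, Macf1, Dclk1, Abl1, Acaca, Rara, Adar, Tpm1, Nfatc1, Gata2, Rassf1 and Runx1. The count does not show that the separate NMIs lay at the promoters for which these genes are known. At Runx1, for one, both NMIs lay within 4270 bp of a gene of 224684 bp, and the first did not hold its outermost 5′ end. Among those with 1 NMI were Ank1, Bdnf, Crem and Dnmt1, and among the 26 with none were Ank3, Cdkn2a, Cyp19a1, Dmd, Esr1 and Fgf1. Of 22 genes of cytoskeletal linkers, 8 had 2 or more (36.4%, 17.2 to 59.3), namely Plec, Dst, Macf1, Tns3, Epb41l1, Epb41, Tpm1 and Flna. Genes of both lists had a median of 9.5 and 11.5 distinct 5′ ends, against 5 for all genes with an NMI. Their median lengths were 67063 and 92064.5 bp, against 24882 bp. The part of these differences in the shares was not tested.

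Among transcription factors with families of isoforms, 8 of 51 had 2 or more NMIs (15.7%, 7.02 to 28.6), including the retinoic acid receptor genes Rara and Rarg and the nuclear factor I genes Nfia and Nfic. Chromatin regulators counted 10 of 94 (10.6%, 5.22 to 18.7), with Kdm2b, Kdm2a, Smarca2 and the remodeller genes Chd8 and Chd9 among them. Genes of these lists had a median of 7 distinct 5′ ends each and a median length of 71698 bp for the transcription factors and 48624 bp for the chromatin regulators, against 5 ends and 24882 bp for all genes with an NMI, and the part of this in the shares was not tested. The shares of solute carriers (9 of 149, 6.04%), genes named Zfp (11 of 252, 4.37%), cytosolic ribosomal proteins (3 of 75, 4%), mitochondrial ribosomal proteins (2 of 75, 2.67%) and proteasome subunits (1 of 46, 2.17%) had intervals that took in 3.91%. A single gene was found among septins (Sept9, 1 of 9), the MAP kinase cascade (Map3k12, 1 of 35), receptor tyrosine phosphatases (Ptprs, 1 of 8) and phosphatase regulatory subunits (Ppp2r5c, 1 of 42). None of the 5 phosphodiesterase genes with an NMI had a second one.

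**Figure D5:**
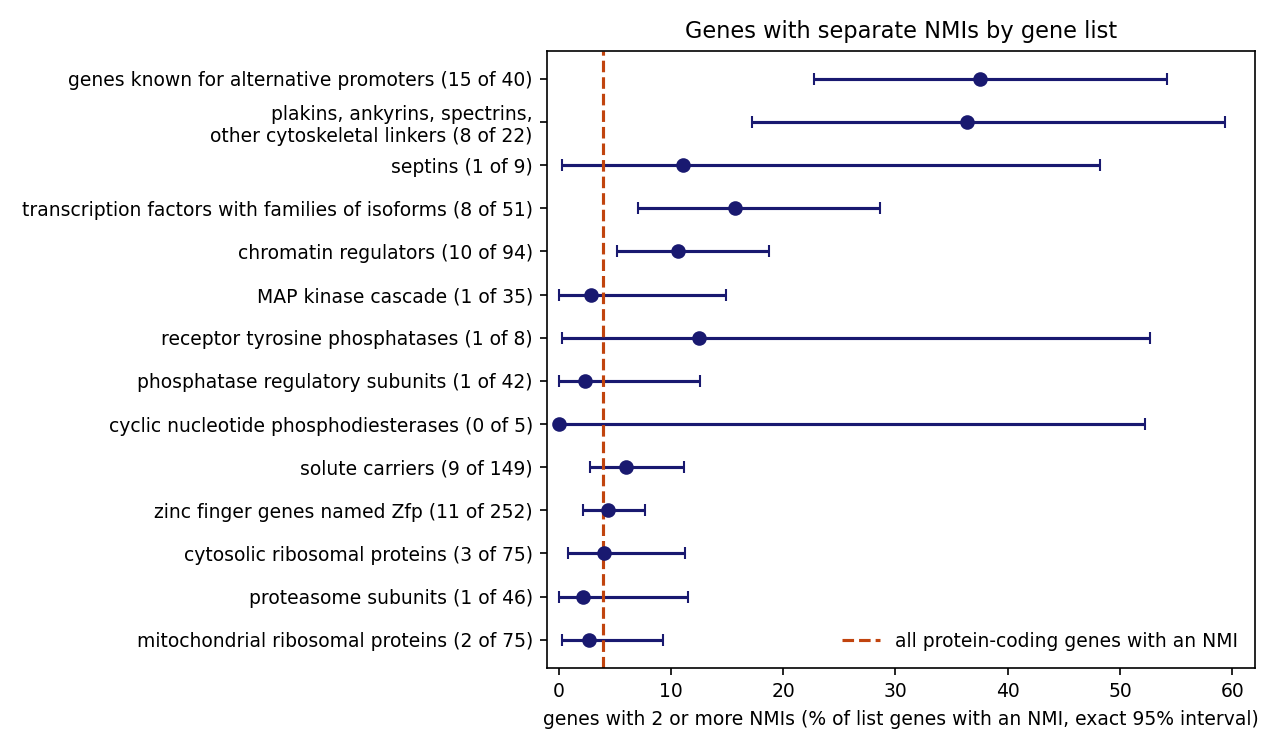
Genes with 2 or more NMIs as a percent of the genes with an NMI in each of 14 gene lists (x axis), with counts beside each name. Points are shares and lines exact 95% intervals, the dashed line marks 3.91% for all protein-coding genes with an NMI, and the 2 lists at the top reach 37.5% and 36.4%.

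The share varied between chromosomes from 1.91% on chromosome 12 (7 of 367 genes) to 5.97% on chromosome 14 (20 of 335), with 1.95% on X (5 of 257), and the intervals of these 3 overlap. The rule has a sharp edge, since a 5′ end had to lie inside the interval. Just inside, a 5′ end lay 1 bp from the edge in the first NMI of Cdk14, and 2 bp from it in the second NMI of Slc44a2 and the first of Zfp617. Just outside, genes with 1 NMI had a 5′ end only 4 bp from another NMI at Bdnf, a neurotrophin gene known for many promoters, 5 bp at Nedd4l and 11 bp at Polr3gl. In all, 62 such genes had a 5′ end within 250 bp of another NMI.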

How the data were processed

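BioCAP was performed once in C127 cells. Per the methods of the study, Bowtie2 was run against mm10, multiply mapping and duplicate reads were dropped (duplicates through SAMtools), and MACS called peaks at a false discovery rate of 0.01. Tool versions, and which control served for this list, are not given in sources used here. The positions deposited by the authors (chromosome, start, end) carry no score, count or depth, so that NMIs could not be ranked by enrichment and weakly captured or repeat-rich islands may be left out. Starts were counted from 1. Transcript 5′ ends, start codons and exons came from GENCODE M21 (GRCm38), and sequence from RefSeq GRCm38.p6. Overlap, CpG density (CpG per 100 bp) and soft-masked repeats were computed with Python 3.11.15, numpy 2.4.6 and scipy 1.17.1, after tests on simulated intervals. Named genes were those with at least 4 NMIs, the 8 widest and 8 smallest gaps, the 8 widest NMIs and up to 4 genes per list; further genes named with 3 NMIs or from the lists were chosen after their values were seen. Members and lists were chosen with earlier results of these data known. The ATAC, RNA and input samples were not analysed here. Some items that the rules take in are not reported here.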

Additional observations from a re-analysis of the deposited data

How the results depend on the processing

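Of 54 values recomputed under 9 alternatives, 42 stayed within the counting interval of the reported value (for counts of genes, within 1.5 times). With transcripts of support level 1 only, 185 genes (1.96%) had separate NMIs, the median gap was 15998.5 bp and start codons differed in 60% of pairs. With only NMIs that held no 5′ end of another protein-coding gene, the values were 238 genes, 2.94%, 17013.5 bp and 60.4%. The share of genes moved to 3.22% with protein-coding transcripts only, to 4.46% with 5′ ends within 250 bp of an NMI, and to 3.15%, with a median width of 1180 bp, without NMIs narrower than 572 bp. Joining NMIs less than 250 bp apart changed nothing, since none were, and joining those less than 1000 bp apart gave 383 genes, 382 of them among the 408. Leaving out transcripts with an incomplete 5′ end, chosen after seeing the data, left 398 genes. No paired analysis was possible because there was 1 library.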
